A study of Mus musculus with 22 samples.

Results

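The 10 genes whose products silence Dux, its target retroelement MERVL or the genes of the 2-cell embryo are the subject of these measurements, across 10 groups of libraries: Trim28, Setdb1, Chaf1a, Chaf1b, Kdm1a, Ehmt1, Ehmt2, Smchd1, Zmym2 and Rif1. They were chosen by name, and make up 10 of the 55487 genes listed. All 10 passed the filter on low values in both tables of normalised reads. A normalised read is a read divided by the size factor of its library. A gene was called where the adjusted p of limma, a linear model fitted to the log2 values of all genes, was under 0.05 and the change at least 2-fold. In full-length DUX against the mCherry control, 4 of the 10 were called, beside 44.2% of all genes tested. Chaf1b and Trim28 rose, though the log2 fold change of Trim28 was -0.18 under quantile normalization, and Chaf1a and Rif1 fell. Chaf1a and Chaf1b code for subunits of one complex and moved in opposite directions.

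All groups were mouse embryonic stem cells of a Dux-/- line, mCherry controls included. DUX is a transcription factor with a pair of homeodomains that switches on loci active in the 2-cell embryo. Each group is named for its construct. One construct was the red fluorescent protein mCherry alone, and in the others mCherry was fused to full-length Dux (FL) or to a derivative of it. The constructs mCherry, FL, C1+14 and C3+14 were normalised in one table with C1C3a, C1C3b and C1C3c, called the chimera table here. FL, C12345delt14, deltC12345+14 and deltC12345delt14 were normalised in another, called the deletion table. The labels do not spell out C1 to C5, delt, 14 or the letters a, b and c. Cells were kept in 2iLIF medium, recovered for 24 hours after plating and received 0.25 ug/mL doxycycline for 12 hours. Each of the 10 groups used here has 2 libraries. C3delt14 was not analysed here. The labels do not say whether a line was 1 clone, nor whether replicates were separate cultures, so the p-values measure the spread between these libraries, which may be technical.

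These repressors work at several layers of chromatin. TRIM28 (also called KAP1) is brought to retroelements by zinc-finger proteins and recruits SETDB1, which methylates lysine 9 of histone H3. CAF-1, made of CHAF1A, CHAF1B and a histone-binding subunit, places histones on newly copied DNA, and its loss in embryonic stem cells yields cells that resemble the 2-cell embryo. KDM1A (LSD1) removes methyl groups from lysine 4 of histone H3, EHMT1 (GLP) and EHMT2 (G9a) form an H3K9 methyltransferase, and SMCHD1, ZMYM2 and RIF1 take part in silencing by other routes.

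Library totals ran from 21059953 to 40448890 reads. Dux (listed as Duxf3) was at 0 in all 20 libraries, FL included, so it checks no label. The 8 embryonic stem cell markers were above 0 in every library and summed to between 40629 and 89324 normalised reads in the chimera and between 83929.5 and 128161 in the deletion table. Against mCherry none of the 8 was called higher, beside 12.4% (C1+14) to 29.6% (C3+14) of all genes. With the share of all genes called lower in parentheses, 6 were called lower in C1C3b (17.1%), 5 in C1C3c (10.5%) and 4 in FL (19.6%). In C3+14 4 were lower (17.7%), in C1C3a 2 (19.0%) and in C1+14 1 (5.95%). Nanog had 1051 to 1308 in C1C3b and 15907 to 16214 in mCherry, and Sox2 463 to 1039 in FL and 4866 to 4962 in mCherry. Other markers were higher in FL than in mCherry without overlap, by less than 2-fold or uncalled. Pou5f1 had 19308 to 20815 in FL and 12414 to 12697 in mCherry. Dppa5a had 33862 to 38055 and 19331 to 21712, and Utf1 1099 to 1734 and 926 to 928. The part of these markers in the results was not tested. The 8 markers of the 2-cell stage summed to between 1892940 and 3567430 normalised reads in FL, between 1268170 and 1393530 in C3+14 and between 1072960 and 1552020 in C1C3a. The sums were lower in C1C3b, at 23694 and 34144, and in C1C3c, at 1443 and 1622. They summed to at most 19.7 in C1+14, with 3 of the 8 at 0, and 0.858 in mCherry, with 7 of the 8 at 0. In the deletion table they summed to at least 928313 in C12345delt14 and at most 4.10 in deltC12345+14 and deltC12345delt14. Trophectoderm markers summed to between 656 and 911 in FL and between 1965 and 2076 in mCherry, primitive endoderm markers stayed at or below 624 and fibroblast markers at or below 183 in the chimera table. The libraries fell into a pair of kinds by the share of reads in 1747 genes with many near-identical copies. It was 1.98% to 2.99% in FL, C12345delt14, C1C3a, C1C3b, C1C3c, C1+14, deltC12345+14 replicate 1 and deltC12345delt14 replicate 2. It was 0.532% to 0.689% in mCherry, C3+14, deltC12345+14 replicate 2 and deltC12345delt14 replicate 1. In FL, C1C3a, C1C3b, C1C3c and C1+14 against mCherry the construct and the kind of library cannot be told apart. The same holds for C3+14 against FL. FL, C1C3a, C1C3b and C1C3c were therefore also compared with C1+14, which is of their kind and had few 2-cell reads, and C3+14 is of the kind of mCherry. Within deltC12345+14 and deltC12345delt14, which hold 1 library of each kind, only Rif1 of the 10 differed by 2-fold or more between the kinds, in deltC12345delt14.

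The genes that rose and fell in FL are shown by the 250 bases before their annotated start, since these are stretches where regulatory factors bind and since Chaf1a and Chaf1b moved in opposite directions. The sequences come from RefSeq (GRCm38.p6), read in the direction of the gene, all + strand. No annotated exon overlaps these 3 windows, and that of Trim28 lies within the annotated span of the gene, before its RefSeq start. Capitals mark a GC box (GGGCGG, on either strand) or a CCAAT box (CCAAT, on either strand).
Trim28 (chr7:13023902-13024151): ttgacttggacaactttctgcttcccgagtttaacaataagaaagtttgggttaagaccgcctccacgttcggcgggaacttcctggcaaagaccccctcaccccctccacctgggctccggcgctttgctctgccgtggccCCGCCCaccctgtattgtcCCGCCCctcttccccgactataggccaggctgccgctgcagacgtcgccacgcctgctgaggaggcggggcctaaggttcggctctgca
Chaf1b (chr16:93883651-93883900): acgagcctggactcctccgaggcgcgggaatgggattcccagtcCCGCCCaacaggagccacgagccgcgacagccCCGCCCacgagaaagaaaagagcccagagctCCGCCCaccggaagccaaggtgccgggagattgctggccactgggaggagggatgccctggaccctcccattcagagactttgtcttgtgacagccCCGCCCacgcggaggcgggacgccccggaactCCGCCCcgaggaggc
Chaf1a (chr17:56040166-56040415): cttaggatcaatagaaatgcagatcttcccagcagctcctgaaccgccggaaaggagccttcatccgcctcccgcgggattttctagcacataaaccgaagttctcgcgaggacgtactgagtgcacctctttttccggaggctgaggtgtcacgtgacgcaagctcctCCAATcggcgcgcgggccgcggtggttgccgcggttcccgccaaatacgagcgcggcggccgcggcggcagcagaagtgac
The window of Chaf1b holds 5 GC boxes, that of Trim28 holds 2 and that of Chaf1a none. Chaf1a has 1 CCAAT box and Trim28 and Chaf1b have none. A GC box occurs in 32.7% and a CCAAT box in 33.8% of the 32851 windows of the same length. The same windows are held for 9 of the 10 members, as 11 windows. Members not called in FL against mCherry also hold GC boxes. Smchd1 has 4, Ehmt1 2, Ehmt2 2 and 4 in separate windows, and Setdb1 1. Zmym2 has 2 and 0 in separate windows, and Kdm1a 0. GC boxes were thus not particular to the genes that rose. A CCAAT box also occurs in windows of Setdb1, Kdm1a and Zmym2. A DUX motif and a DUX4-type motif were also searched for and occur in none of the 11 windows. Both are rare in the windows of all genes. The promoter of Rif1 was not analysed here. A match describes letters in this window and was not tested for binding.

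Trim28 and Setdb1 code for the corepressor and the methyltransferase of H3K9-based silencing. Trim28 (ENSMUSG00000005566, chr7:12999114-13031035, + strand, GRCm38) was the highest of the 10 per kilobase of exon in every group, at 6917 ± 11.4 (SD, n = 2) normalised reads per kilobase in mCherry and 14774 ± 1071 (SD, n = 2) in FL. Normalised reads of Trim28 were 64582 and 58282 in FL, 55024 and 59240.4 in C1C3a and 43340.4 and 43644 in C3+14. They were 28795 and 28728 in mCherry, 21560.1 and 26854 in C1+14, 22145 and 21299 in C1C3b and 19761 and 15465 in C1C3c. FL, C1C3a and C3+14, whose 2-cell markers were highest, held the 6 highest libraries, and none of these overlapped with the 8 others. Trim28 rose 2.13-fold in FL (log2 fold change 1.09, SE 0.14, limma adjusted p = 1.40e-05) and 2.55-fold against C1+14 (log2 fold change 1.35, SE 0.14, limma adjusted p = 2.80e-06). In C1C3a it was 1.99-fold above mCherry (log2 fold change 0.99, SE 0.14, limma adjusted p = 3.13e-05), and this passed 2-fold without C1C3a replicate 1 (1.04). It rose in C1C3a against C1+14 (log2 fold change 1.25, SE 0.14, limma adjusted p = 4.89e-06). In C3+14 the log2 fold change against mCherry was 0.60 (limma adjusted p = 0.00180). All 5 of these differences turned negative under quantile normalization, where they ran from -0.61 to -0.12 and the median of all genes in FL against mCherry moved by -0.36, to -0.27. Trim28 was at -0.18 there, above that median. The call in FL against mCherry also missed 2-fold under upper-quartile scaling and edgeR (both 0.93). In the order of the groups only the neighbours C3+14 and mCherry differed beyond their spread (limma adjusted p under 0.05, no overlap). Zbtb45, on the opposite strand over part of Trim28, had a mean of 597 normalised reads in mCherry and 336 in FL. In bulk RNA, a change in the amount per cell cannot be told apart from a change in the share of cells that express the gene.

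Setdb1 (ENSMUSG00000015697, chr3:95323525-95357202, - strand) had a narrower range. Its normalised reads were 4698 and 5776 in C1C3a, 4693 and 4598 in FL, 4527 and 4599.8 in C3+14 and 3807 and 3865 in mCherry. They were 2471 and 2763 in C1+14, 2704 and 2440.1 in C1C3c and 2183 and 1974 in C1C3b. The 6 libraries of FL, C1C3a and C3+14 were above mCherry, and the 6 of the weaker constructs below it. No comparison with mCherry passed 2-fold: FL differed by 0.28 (limma adjusted p = 0.0604; -0.16 under quantile normalization), and C1C3b by -0.89 (limma adjusted p = 3.24e-05). C1C3a was above mCherry by 0.44 (limma adjusted p = 0.00575), a difference that was -0.00892 under quantile normalization. Against C1+14, Setdb1 was higher in C1C3a (log2 fold change 0.99, SE 0.12, limma adjusted p = 1.20e-05), and between C1C3a and C1C3b the log2 difference was 1.33 (limma adjusted p = 1.40e-06). Within a library, where scaling plays no part, Trim28 had 13.8 and 12.7 reads per Setdb1 read in FL, and 7.56 and 7.43 in mCherry. The ratio was higher in both FL libraries than in any other library. Among neighbouring groups, Setdb1 differed beyond the spread only between mCherry and C1+14.

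**Figure D1:**
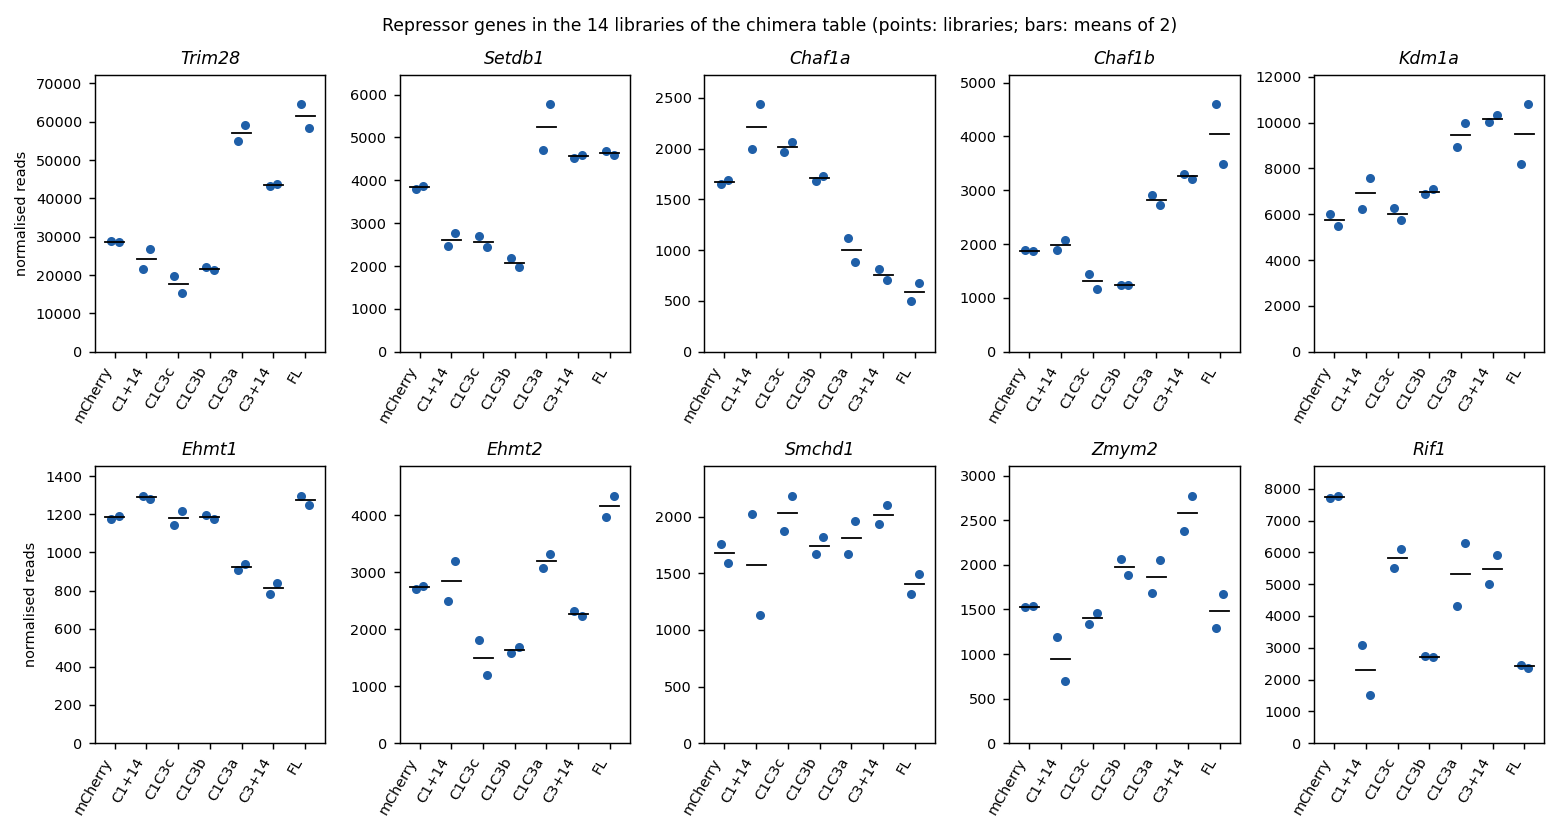
Normalised reads of each of the 10 repressor genes (vertical axes, from 0, scaled for each gene) in the 14 libraries of the chimera table, with points for libraries and bars for the mean of 2. Chaf1a is low and Chaf1b high in C1C3a, C3+14 and FL, and Rif1 is highest in mCherry. The height of Trim28 in FL, C1C3a and C3+14 is on the deposited scale, and turned to a fall against mCherry under quantile normalization.

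The 2 large subunits of CAF-1 moved in opposite directions. Chaf1a (ENSMUSG00000002835, chr17:56040439-56072289, + strand) codes for the subunit that binds the replication clamp. It had 504 and 681 normalised reads in FL, 811 and 708 in C3+14 and 1124 and 885 in C1C3a. It had 1655 and 1691 in mCherry, 1681 and 1734 in C1C3b, 1964 and 2067 in C1C3c and 1995 and 2436 in C1+14. Every library of FL, C3+14 and C1C3a was below every other library. Chaf1a fell 2.85-fold in FL (log2 fold change -1.51, SE 0.16, limma adjusted p = 4.23e-06) and 2.21-fold in C3+14 (log2 fold change -1.14, SE 0.16, limma adjusted p = 4.85e-05). C3+14 and mCherry are libraries of the same kind, as are FL and C1+14, where the fall was 3.76-fold (log2 fold change -1.91, SE 0.16, limma adjusted p = 6.94e-07). In C1C3a it was lower than mCherry by less than 2-fold (log2 fold change -0.75, SE 0.16, limma adjusted p = 0.00146), and fell against C1+14 (log2 fold change -1.14, SE 0.16, limma adjusted p = 5.93e-05), a call lost without C1+14 replicate 2, just under 2-fold, and without C1C3a replicate 2 (-0.97). Over the 16 alternatives computed, the fall in FL against mCherry lay between -1.73 and -1.30 on the log2 scale. Among neighbouring groups, only mCherry and C1C3a differed beyond the spread. Chaf1a has 8854 exon bases, and long genes as a class moved with the same groups. A length index, the median centred log2 level of genes with at least 8000 exon bases minus that of genes under 2000, was -0.86 to -0.30 in the 6 libraries of FL, C3+14 and C1C3a. In the 8 other libraries it was 0.17 to 0.79, and its part in the fall of Chaf1a was not tested.

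Chaf1b (ENSMUSG00000022945, chr16:93883901-93906115, + strand), which codes for the other large subunit, ran the other way. Its normalised reads were 4597 and 3493 in FL, 3296 and 3217 in C3+14 and 2913 and 2732 in C1C3a. They were 1895 and 2067 in C1+14, 1886 and 1874 in mCherry, 1448 and 1165 in C1C3c and 1246 and 1236 in C1C3b. The first 3 groups lay above all others without overlap. Chaf1b rose in FL by 2.13-fold (log2 fold change 1.09, SE 0.14, limma adjusted p = 1.92e-05) against mCherry and by 2.02-fold (log2 fold change 1.02, SE 0.14, limma adjusted p = 4.45e-05) against C1+14. Without FL replicate 1 these log2 values were 0.89 and 0.82, and under edgeR 0.94 and 0.79, so that neither passed 2-fold. In C3+14 and C1C3a it was above mCherry by 0.79 and 0.59 on the log2 scale, and in C1C3b and C1C3c it was below mCherry by a log2 difference of -0.60 and -0.53. All 4 had a limma adjusted p under 0.05 and stayed under 2-fold, and that of C1C3a was 0.25 under upper-quartile scaling (limma adjusted p = 0.155). Neighbouring groups differed beyond the spread between C1C3a and C1+14 and between mCherry and C1C3c.

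The ratio of the subunits within a library does not depend on scaling between libraries. Chaf1a reads per Chaf1b read were 0.110 and 0.195 in FL, 0.246 and 0.220 in C3+14 and 0.386 and 0.324 in C1C3a. They were 0.878 and 0.902 in mCherry, 1.05 and 1.18 in C1+14, 1.35 and 1.40 in C1C3b and 1.36 and 1.78 in C1C3c. The ratio was at most 0.386 in the 6 libraries of FL, C3+14 and C1C3a and at least 0.878 in the 8 others, without overlap. With 2 libraries against 2, an exact permutation test cannot give a p below 0.333, so the ratio is given with its values alone. Chaf1a, with 8854 exon bases, is in the long class of the length index and Chaf1b, with 4681, is not. The index was low in the same 6 libraries as the ratio, and its part in the ratio was not tested. Ubxn6, which lies on the opposite strand across part of Chaf1a, had a mean of 336 normalised reads in FL and 190.3 in mCherry, and whether the counting used strand is not given in the sources used here.

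**Figure D2:**
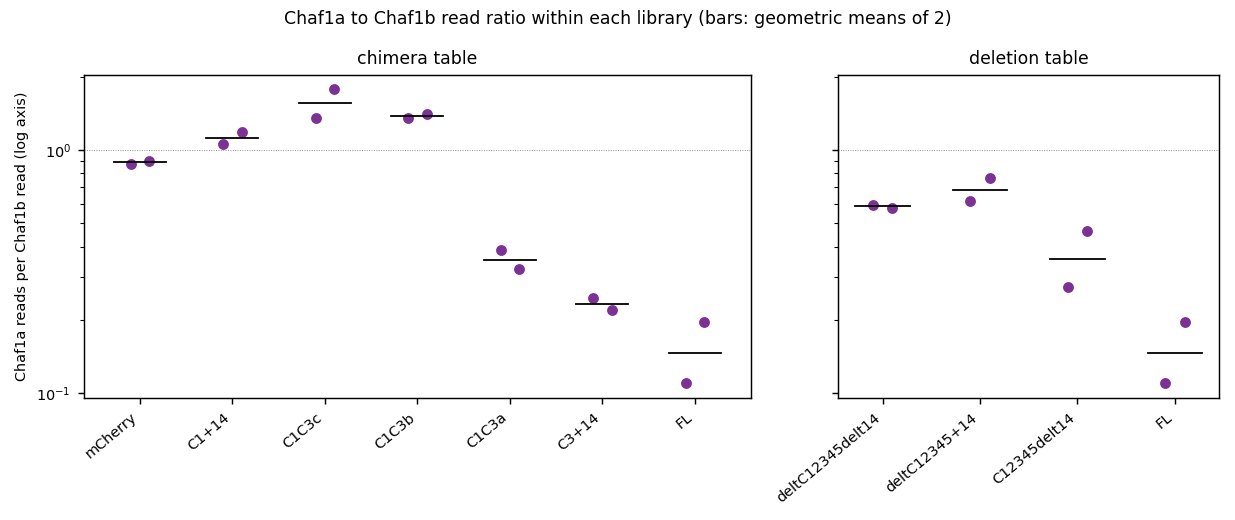
Chaf1a reads per Chaf1b read (vertical log axis) in each library of the chimera table (left) and the deletion table (right), with points for libraries and bars for the geometric mean of 2. FL, C3+14 and C1C3a lie at 0.386 or lower and the other chimera groups at 0.878 or higher, and C12345delt14 (0.272 to 0.462) lies between FL and the other constructs of the deletion table.

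Kdm1a (ENSMUSG00000036940, chr4:136550540-136602723, - strand) codes for the demethylase LSD1. Normalised reads were 10007 and 10330.1 in C3+14, 8192 and 10800.3 in FL and 8943 and 9962 in C1C3a. They were 6873 and 7083 in C1C3b, 6231 and 7597 in C1+14, 6271 and 5736 in C1C3c and 6000.3 and 5507 in mCherry. C3+14, FL and C1C3a again held the 6 highest libraries and did not overlap with the rest. None passed 2-fold: C3+14 was above mCherry by 0.82, C1C3a by 0.72 and FL by 0.71 on the log2 scale, with limma adjusted p of 0.000181, 0.000551 and 0.000609. The differences of FL and C1C3a from C1+14, 0.45 and 0.46, turned negative under quantile normalization (-0.48 and -0.42). The differences of FL and C1C3a from mCherry were 0.04 and 0.10 there, with limma adjusted p of 0.837 and 0.553. Luzp1, on the opposite strand over part of Kdm1a, had a mean of 2069 normalised reads in mCherry and 282 in FL.

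Zmym2 (ENSMUSG00000021945, chr14:56886653-56962701, + strand), a zinc-finger protein found in LSD1 and CoREST complexes, followed another pattern. It had 2384 and 2779 normalised reads in C3+14, 2068 and 1885 in C1C3b, 1685 and 2051 in C1C3a and 1527 and 1535 in mCherry. It had 1291 and 1677 in FL, 1340.2 and 1465 in C1C3c and 1186 and 701 in C1+14. FL and mCherry overlapped, and the lowest values were those of C1+14. It rose in C1C3b (log2 fold change 1.11, SE 0.21, limma adjusted p = 0.000843) and C1C3a (log2 fold change 1.03, SE 0.21, limma adjusted p = 0.000947) against C1+14. Without C1+14 replicate 2 these log2 values fell to 0.73 and 0.65 and neither call was made. No comparison with mCherry was called, and no neighbours in the order of groups differed beyond their spread.

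Ehmt1 and Ehmt2 code for the partners GLP and G9a. Both methylate lysine 9 of histone H3 and are bound to each other. Ehmt1 (ENSMUSG00000036893, chr2:24789928-24919614, - strand) had 1297 and 1282 normalised reads in C1+14, 1298 and 1246 in FL, 1177 and 1192 in mCherry and 1195 and 1172 in C1C3b. It had 1143 and 1219 in C1C3c, 909 and 939 in C1C3a and 784 and 841 in C3+14. C1C3a and C3+14 held the 4 lowest libraries, and C1C3c and C1C3a were the only neighbouring groups that differed beyond the spread. Against mCherry the log2 difference was -0.54 in C3+14 (limma adjusted p = 0.000689) and -0.36 in C1C3a (limma adjusted p = 0.0110), both under 2-fold. With 8116 exon bases Ehmt1 falls in the long class of the length index, which was low in C3+14 and C1C3a, and its part in these differences was not tested.

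Ehmt2 (ENSMUSG00000013787, chr17:34898469-34914052, + strand) had 3966 and 4347 normalised reads in FL, 3071 and 3324 in C1C3a, 2487 and 3195 in C1+14 and 2712 and 2759.6 in mCherry. It had 2317 and 2227 in C3+14, 1578 and 1695 in C1C3b and 1805 and 1191 in C1C3c. Both FL libraries were above all others, and the 4 libraries of C1C3b and C1C3c were below all others. FL was above mCherry by 0.60 (limma adjusted p = 0.00791), and by 0.23 under quantile normalization (limma adjusted p = 0.311). It was above C1+14, of the kind of FL, by 0.56 (limma adjusted p = 0.0131), a difference that was -0.0574 under quantile normalization. C1C3b and C1C3c lay below C1+14 by log2 differences of -0.79 and -0.94 (limma adjusted p = 0.00234 and 0.00363), under 2-fold. C3+14 against FL differed by -0.87 in Ehmt2 and by -0.65 in Ehmt1, with limma adjusted p of 0.00137 and 0.000453. FL is of another kind of library than C3+14 and mCherry. Ehmt2 was higher in the kind of FL by log2 0.34 in deltC12345+14 and 0.37 in deltC12345delt14, and the part of the kind was not tested. Within a library, Ehmt1 reads per Ehmt2 read were 0.327 and 0.287 in FL, 0.434 and 0.432 in mCherry, 0.758 and 0.692 in C1C3b and 0.633 and 1.02 in C1C3c. In the chimera table the ratio was highest in C1C3b and C1C3c. In FL it was lower than in mCherry, of another kind of library, and than in C1+14, of the same kind (0.522 and 0.401). It was also low in C1C3a, at 0.296 and 0.282. In the deletion table it was 0.253 and 0.330 in deltC12345+14 and 0.287 and 0.245 in deltC12345delt14, so a low ratio was not particular to FL. Ehmt1 is in the long class of the length index and Ehmt2, with 5489 exon bases, is not. The part of the index in the ratio was not tested.

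Rif1 (ENSMUSG00000036202, chr2:52072832-52122383, + strand), which codes for a protein of replication timing and heterochromatin, was highest in mCherry. Normalised reads were 7709 and 7790.0 in mCherry, 5506 and 6114 in C1C3c, 4998 and 5928 in C3+14 and 4315 and 6303 in C1C3a. They were 2730.1 and 2707 in C1C3b, 2465 and 2356 in FL and 3072 and 1506 in C1+14. All 12 libraries with a DUX construct were below both mCherry libraries. Rif1 fell in FL 3.21-fold (log2 fold change -1.68, SE 0.25, limma adjusted p = 7.14e-05), in C1C3b (log2 fold change -1.51, SE 0.25, limma adjusted p = 0.000189) and in C1+14 (log2 fold change -1.85, SE 0.25, limma adjusted p = 0.000173). FL did not differ from C1+14 beyond the spread (log2 fold change 0.16, SE 0.25, limma adjusted p = 0.603), and C3+14 was called higher than FL (log2 fold change 1.18, SE 0.25, limma adjusted p = 0.00242). FL, C1C3b and C1+14 are of another kind of library than mCherry, and FL of another kind than C3+14. Construct and kind cannot be told apart in these calls. In deltC12345delt14 Rif1 had 2181 in the kind of FL and 4773 in the other, and in deltC12345+14 6499 and 5615. The part of the kind was not tested. In C3+14 against mCherry, libraries of the same kind, the log2 difference was -0.51 (limma adjusted p = 0.0937).

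The order of Rif1 was not that of the 2-cell markers: the C1+14 libraries, with at most 19.7 2-cell marker reads, lay on either side of those of FL. The C1+14 libraries lay 2.04-fold apart, and the calls against it, C1C3a at 1.28 and C1C3c at 1.43, fell to 0.76 and 0.92 without C1+14 replicate 2. The fall of C1+14 against mCherry had an adjusted p of 0.0719 when limma was fitted on those groups alone. Rif1 has 10504 exon bases. The length index was -0.86 and -0.69 in FL, 0.62 and 0.32 in C1+14 and 0.17 and 0.20 in mCherry, and its part in the result was not tested.

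Smchd1 (ENSMUSG00000024054, chr17:71344489-71475343, - strand), an SMC-hinge protein that acts on the inactive X chromosome and imprinted clusters, had 1878 and 2188 normalised reads in C1C3c, 1935 and 2101 in C3+14, 1667 and 1959 in C1C3a and 1672 and 1817 in C1C3b. It had 1758 and 1594 in mCherry, 2022 and 1128 in C1+14 and 1317 and 1494 in FL. No neighbouring groups differed beyond their spread, and the C1+14 libraries lay 1.79-fold apart. Smchd1 was the only one of the 10 that did not pass a test of any difference among the 7 groups (limma F test, adjusted p = 0.181). The other 9 passed that test, beside 89.9% of all genes.

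**Figure D3:**
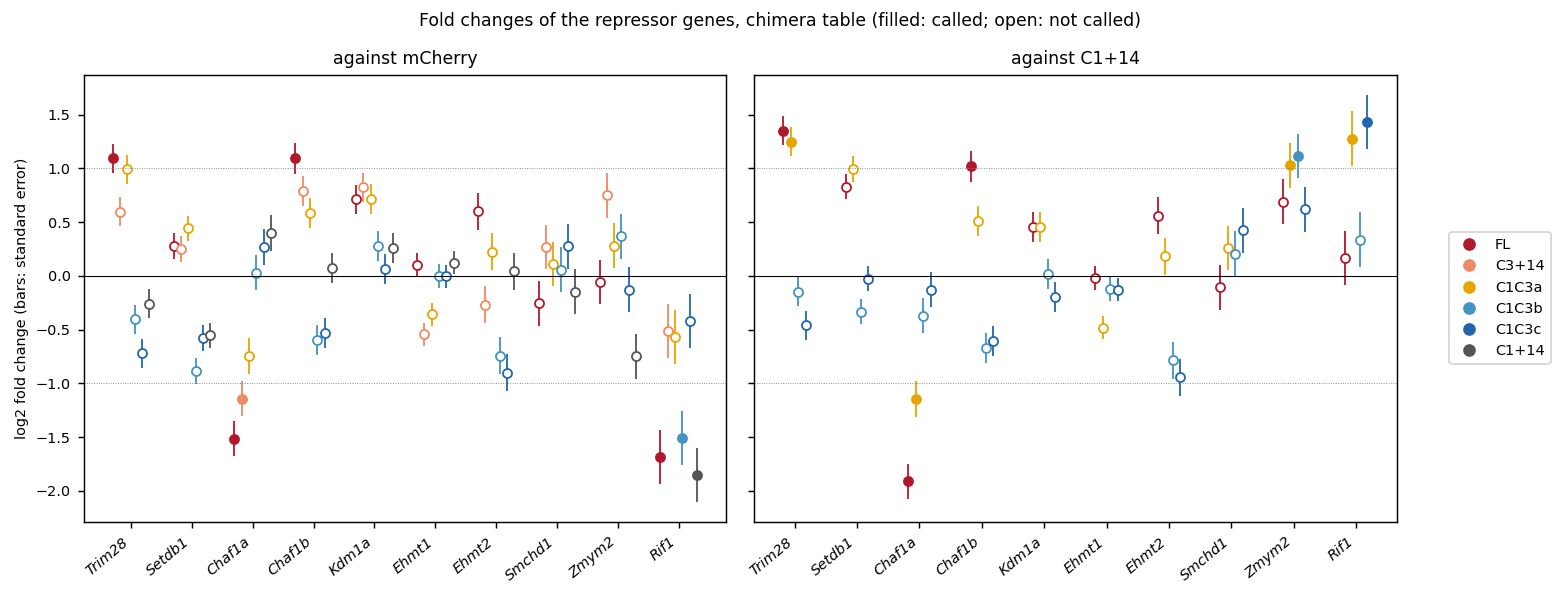
Log2 fold change (vertical axis) of each gene against mCherry (left) and against C1+14 (right), with standard errors from limma as bars and filled points where the adjusted p was under 0.05 and the change at least 2-fold. Chaf1a is at -1.51 in FL against mCherry and -1.91 against C1+14, and Rif1 at -1.68 and 0.16. The positive points of Trim28 in FL, C1C3a and C3+14 turned negative under quantile normalization.

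Counts of called members were at or below the share of all genes in each comparison of the chimera table except C1C3c against C1+14. In FL against mCherry, 2 of 10 members were called higher and 2 lower, beside 24.5% and 19.6% of all 21584 genes tested, and edgeR called 2. Of all called genes 55.5% were higher, and 41.2% under quantile normalization. The libraries of FL and mCherry did not overlap for 9 of the 10, beside 80.5% of all genes. In C3+14 against mCherry, 1 of 10 was called, beside 47.3%. In C1C3b it was 1 of 10 beside 44.7%, and in C1+14 1 of 10 beside 18.3%. In C1C3a and C1C3c 0 of 10 were called by limma, edgeR and DESeq2, beside 46.4% and 28.8% of all genes, although 7 and 4 members had an unadjusted p under 0.05, beside 66.2% and 51.7% of all genes. Against C1+14, FL had 3 called (39.9% of all genes), C1C3a 4 (40.8%), C1C3b 1 (28.9%) and C1C3c 1 (7.83%). Without C1+14 replicate 2, Zmym2 and Rif1 in C1C3a, Zmym2 in C1C3b and Rif1 in C1C3c fell under 2-fold. Chaf1a in C1C3a was then just under 2-fold, and Setdb1 in C1C3a passed it (log2 fold change 1.08). In C3+14 against FL 1 of 10 was called, beside 26.3%. These comparisons share their reference libraries. The median log2 fold change of the 10 was 0.19 in FL against mCherry, beside 0.09 over all genes.

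In the deletion table the FL libraries are those of the chimera table, with another scaling. There the low Chaf1a of FL and its high Trim28 were called against deltC12345delt14, the latter with the sign turned under quantile normalization. Trim28 had 79430.0 and 72903 normalised reads in FL, 61027 and 48947 in C12345delt14, 35075 and 33545 in deltC12345+14 and 34418 and 36086 in deltC12345delt14. It rose in FL against deltC12345delt14 (log2 fold change 1.11, SE 0.16, limma adjusted p = 0.000986) and was above it by 0.63 in C12345delt14 (limma adjusted p = 0.0203), and both values turned negative under quantile normalization (-0.21 and -0.30). Under TMM scaling the first was 0.96, under 2-fold. Setdb1 had 5772 and 5752 in FL, 4839.8 and 4938 in C12345delt14, 3296 and 3540.3 in deltC12345+14 and 3272 and 3503 in deltC12345delt14. The FL and C12345delt14 libraries of both genes lay above those of the other constructs.

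Chaf1a had 619.7 and 852 normalised reads in FL and 889 and 1473 in C12345delt14. It had 1659 and 2075 in deltC12345+14 and 1941 and 1998 in deltC12345delt14. It fell in FL against deltC12345delt14 (log2 fold change -1.44, SE 0.26, limma adjusted p = 0.00288), and C12345delt14 missed the threshold (log2 fold change -0.78, SE 0.26, limma adjusted p = 0.0539). Chaf1b had 5654 and 4369 in FL, 3269 and 3190.3 in C12345delt14, 2705 and 2704 in deltC12345+14 and 3269 and 3468 in deltC12345delt14. FL held the highest Chaf1b, and C12345delt14 overlapped with deltC12345delt14. Chaf1a reads per Chaf1b read were 0.110 and 0.195 in FL, 0.272 and 0.462 in C12345delt14, 0.613 and 0.768 in deltC12345+14 and 0.594 and 0.576 in deltC12345delt14. The length index was -0.67 to -0.04 in the libraries of FL and C12345delt14 and 0.29 to 0.45 in the 4 others, and its part was not tested.

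Kdm1a had 10075 and 13509.7 in FL and 11282 and 10050.5 in C12345delt14, above 7713 and 6507 in deltC12345+14 and 7457 and 8405 in deltC12345delt14, but its difference between FL and deltC12345delt14 (log2 0.56) turned to -0.27 under quantile normalization. Rif1 had 3032 and 2947 in FL, 4197 and 4250.4 in C12345delt14, 6499 and 5615 in deltC12345+14 and 4773 and 2181 in deltC12345delt14. The 2 Rif1 libraries of deltC12345delt14 are of different kinds and lay apart by more than 2-fold, as those of no other member did. Ehmt1 ran from 1342 to 1596, Ehmt2 from 4181 to 6257, Smchd1 from 1317 to 2019 and Zmym2 from 1587 to 2389.6 normalised reads over the 8 libraries. In Ehmt1 the FL libraries, at 1596 and 1559, were above the 6 others.

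Trim28, Setdb1, Chaf1a, Chaf1b and Kdm1a, 5 of 10, varied among the 4 groups (limma F test), beside 49.6% of all 19833 genes tested. In FL against deltC12345delt14 2 of 10, Trim28 higher and Chaf1a lower, were called, beside 39.1% of all genes. In C12345delt14 against FL, limma, edgeR and DESeq2 called 0 of 10, beside 0.958% of all genes by limma. At an unadjusted p under 0.05 there were 3 of 10, beside 24.9% of all genes. In C12345delt14 against deltC12345delt14 the 3 tools called 0 of 10, beside 22.0%, and 4 of 10 had an unadjusted p under 0.05, beside 45.6%. In deltC12345+14 against deltC12345delt14 they called 0 of 10, with 1 at an unadjusted p under 0.05, beside 0.0% of all genes by limma (2.74% at an unadjusted p under 0.05, 0 genes by edgeR and 3 by DESeq2). That member was Rif1 (log2 difference 0.90, limma adjusted p = 1.00). With the kind of library as a term, an alternative added after seeing the data, 0 of 10 and 0 of all genes were called, and 1 of 10 and 724 genes had an unadjusted p under 0.05. Within each kind, Chaf1b had 2705 reads in deltC12345+14 against 3468 in deltC12345delt14 in one and 2704 against 3269 in the other. Ehmt2 had 5309.7 against 6257 and 4181 against 4842, so that both genes were lower in deltC12345+14 within either kind. Trim28, Kdm1a and Ehmt1 were also lower within either kind, and Smchd1, Zmym2 and Rif1 were higher. With 1 library of each construct per kind these directions have no spread to be set against, and none of these genes was called.

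**Figure D4:**
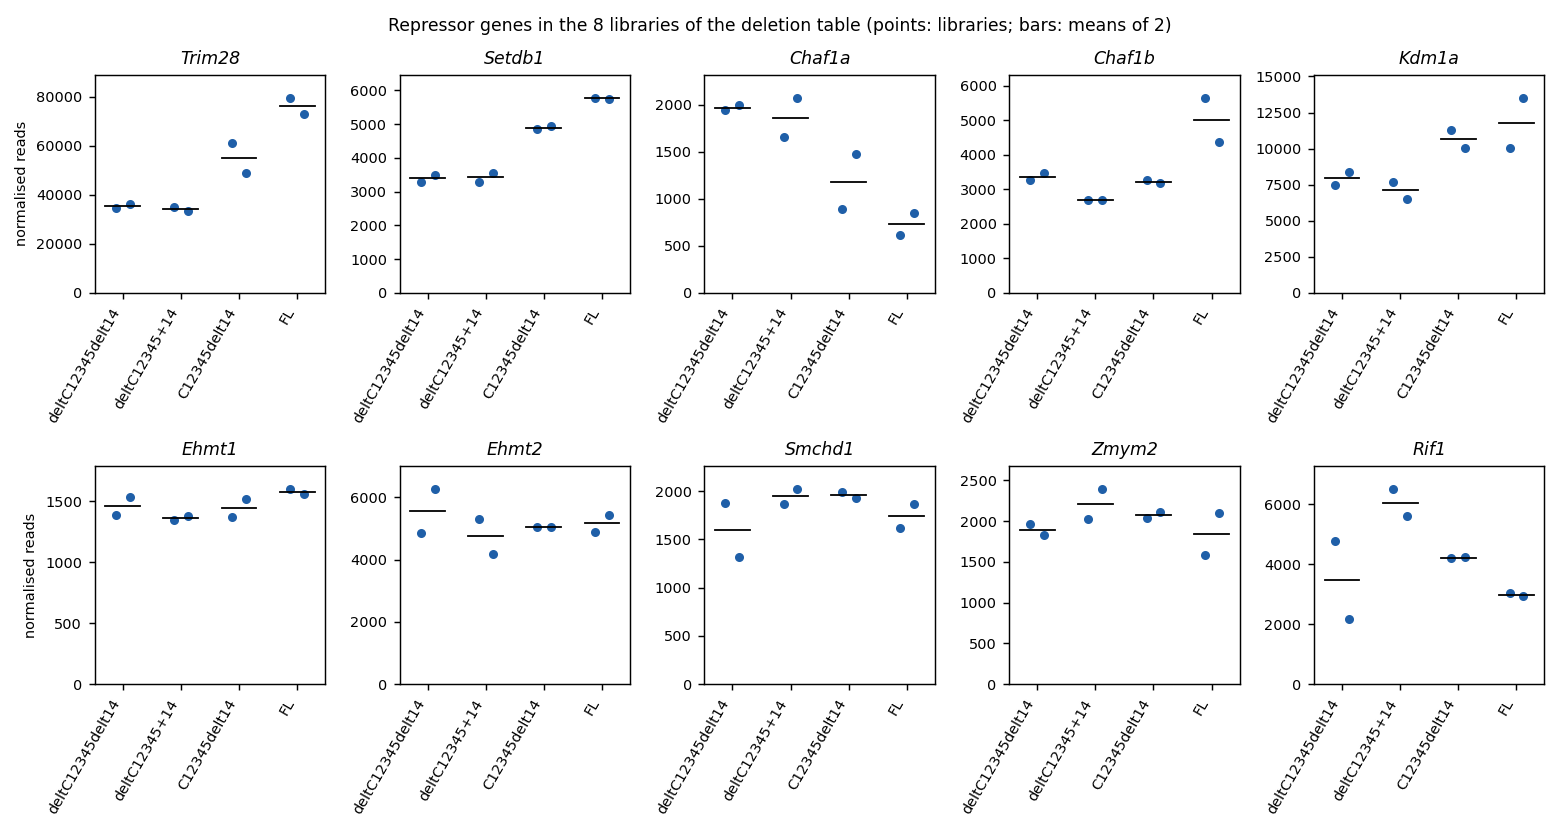
Normalised reads of each repressor gene (vertical axes, from 0, scaled for each gene) in the 8 libraries of the deletion table, with points for libraries and bars for the mean of 2. Chaf1a is lowest and Chaf1b highest in FL, and the Rif1 libraries of deltC12345delt14 lie at 4773 and 2181. The height of Trim28 and Kdm1a in FL turned to a fall against deltC12345delt14 under quantile normalization.

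The 73 partner genes of these repressors were put in 8 lists from general knowledge, with earlier results of these data known. In FL against mCherry, 0 were called higher, beside 24.5% of all genes, and 18 lower, 24.7% of them beside 19.6% of all genes. None was called higher under TMM, upper-quartile or quantile scaling. The median log2 fold change of the 73 was -0.40. Against C1+14, which is of the kind of FL, 0 were called higher (21.5% of all genes) and 11 lower, 15.1% of them beside 18.4% of all genes, with a median of -0.07 beside 0.06. Against mCherry, the median log2 fold change was -0.52 for the KAP1 and SETDB1 partners (4 of 10 lower), -0.89 for the genes of H3.3 assembly (2 of 5) and -0.90 for the partners of G9a and GLP with other H3K9 methyltransferases (2 of 6), beside 0.09 over all genes. Against C1+14 these medians were -0.50 (2 of 10 lower), 0.11 (1 of 5) and -0.68 (1 of 6), so that the H3.3 list changed sign. Resf1, which acts with SETDB1 on retroelements, had 3155 and 3169.7 normalised reads under mCherry and fell to 706 and 723 under FL. Morc3 fell from 4424 and 4516 to 1272 and 1737 and Fam208a, a subunit of the HUSH complex, from 1953 and 2083 to 732 and 808. In the H3.3 list, Ubn1, a subunit of the HIRA complex, fell from 775 and 749.7 to 269.6 and 313 and Atrx, a chromatin remodeler, from 5234 and 5435 to 2310.2 and 2066. Cdyl, a reader that binds G9a, fell from 894 and 954 to 418 and 434, and the H3K9 methyltransferase gene Suv39h2 from 594 and 544 to 334 and 227. These 7 genes were named for their large change in this comparison, so that their FL and mCherry libraries do not overlap is no further result. The libraries of FL and mCherry did not overlap in 80.5% of all genes. Between FL and C1+14 only Atrx of these genes overlapped, with 3124 and 1189 in C1+14, and 74.4% of all genes did not overlap there.

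The CoREST genes Rcor1 and Rcor3, whose products bind LSD1, fell in FL. Rcor1 had 870.3 and 830.4 normalised reads in mCherry and 237 and 375 in FL, and Rcor3 68.0 and 66.9 and 22.1 and 11.9. Of the 16 LSD1 and NuRD genes 3 were lower and 0 higher, with a median of 0.15. Lrif1, a partner of SMCHD1, fell to 131 and 84.5 from 463 and 437, with 21.8% of its 50-base stretches shared with other genes. The 9 genes of replication-coupled assembly, which work with CAF-1, had 0 called by limma and a median of 0.03, which was -0.45 with 1 called lower under quantile normalization. Of the 13 Polycomb genes, 4 were lower: Max had 1861 and 1952 in mCherry and 467 and 581 in FL, Mga 4078 and 4102 and 1358 and 1534, and Rybp 3439.6 and 3533 and 1263 and 1203. Of the 10 SUMO genes 2 were lower, the ligase genes Pias3 (log2 fold change -1.79) and Pias2 (-1.05). The median was -0.47 for the Polycomb and -0.26 for the SUMO genes. Against mCherry, 1 of the 73 was called higher in C3+14 (29.6% of all genes) and 14 lower (17.7% of all genes). In C1C3a the counts were 1 and 12 (27.4% and 19.0% of all genes), and in C1C3b 4 and 17 (27.6% and 17.1%). In C1C3c they were 1 and 5 (18.3% and 10.5%), and in C1+14 1 and 5 (12.4% and 5.95%). These counts use the same mCherry libraries.

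**Figure D5:**
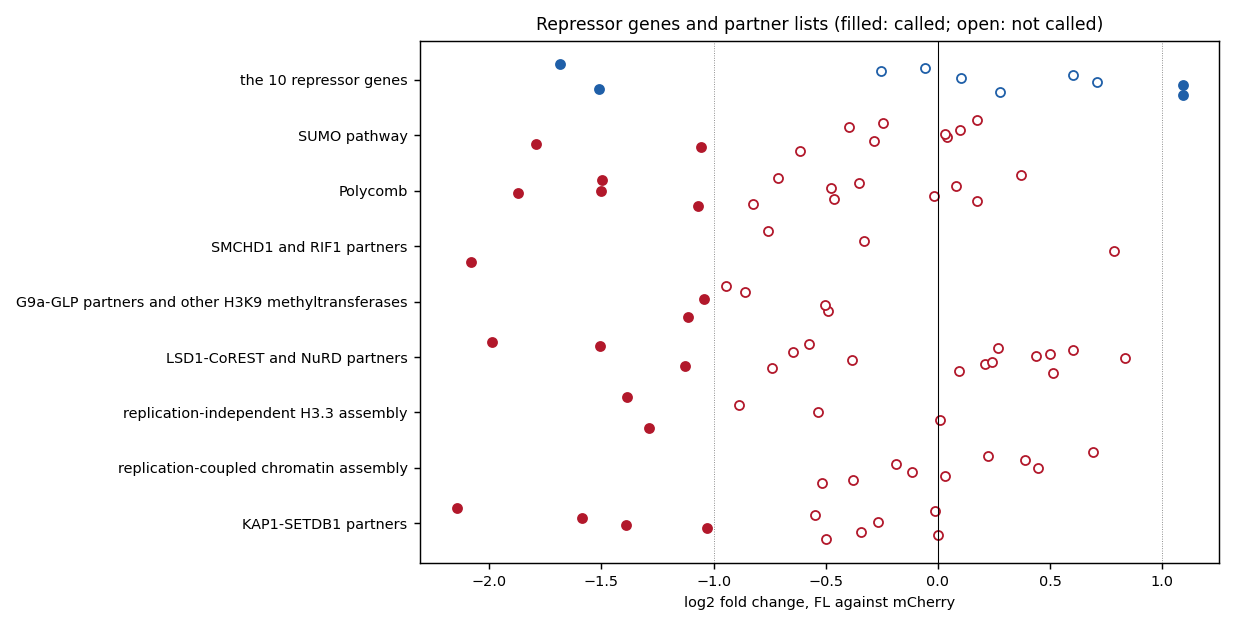
Log2 fold change in FL against mCherry (horizontal axis) of the 10 repressor genes and of the 73 partner genes by list, with filled points where called. The 18 filled partner points are negative, and the repressor genes lie between -1.68 and 1.09. The Trim28 point is negative under quantile normalization.

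In C1C3b, which had a 2-cell signal between those of C1C3c and C1C3a, Rcor2, a CoREST subunit, had 353 and 360.5 normalised reads against 1741 and 2048 in C1+14. The H3.3 chaperone Daxx had 441 and 438 against 1040.1 and 1089. Ppp1cc, a phosphatase subunit that binds RIF1, had 3296 and 3173 against 7485 and 8665, with 55.1% of its 50-base stretches shared with other genes. Zfp644, a partner of G9a and GLP, was higher, at 1184 and 1340.4 against 892 and 436 (log2 fold change 1.01, SE 0.26, limma adjusted p = 0.00684), and C1+14 replicate 2 was the lowest of the 4 libraries. Of the 73 partners 5 were called higher and 6 lower in C1C3b against C1+14, beside 17.9% and 11.0% of all genes. Trim28, Setdb1, Chaf1b and Ehmt2 were below mCherry in C1C3b, by log2 differences from -0.89 to -0.41, and none of these passed 2-fold.

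For each repressor the genes with the closest profile over the 14 chimera libraries were found among 13518 genes, by the root mean square difference of centred log2 values. For Trim28 they were Phb2 (0.0916) and Wdr46 (0.1004), against a spread of Trim28 of 0.665. For Chaf1a they were Tnfaip1 (0.179) and Rcor1 (0.180), against 0.701, and for Chaf1b Tubgcp2 and Ntan1 (both 0.129), against 0.609. For Rif1 Pigw (0.373) and Zfp825 (0.377) were closest, against 0.712. For Kdm1a they were Mad1l1 (0.114) and Cap1 (0.115), against 0.329, and for Ehmt2 Tcof1 (0.132) and Ptov1 (0.146), against 0.511. For Setdb1 they were Zw10 and Mrpl20, for Ehmt1 Capza1 and Hdhd5, for Smchd1 Trappc8 and Slk and for Zmym2 Rnpc3 and Cul3. Of these, Capza1 has 73.8%, Zfp825 30.0%, Rnpc3 23.1% and Ntan1 13.0% of its 50-base stretches shared with other genes. The closest pair among the repressors was Trim28 and Chaf1b (0.244). All points come from the same libraries and share their scaling, so these are descriptions of the profiles.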

How the data were processed

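RNA-seq libraries of 10 groups, 2 each, were analysed from a pair of deposited tables. The deposited values are a normalised signal, which the authors made by dividing read counts by a size factor per library. Reads were trimmed with Trim Galore 0.5.0, checked with FastQC and normalised with DESeq2 on the mm10 build, per the submitters' processing notes. The aligner, the counter, its use of strand and the annotation are not given in the sources used here. Poly-A RNA libraries were stranded, per the labels' protocols. Low values gave the worth of 1 read in each library, and 100% of the 1220714 values then came out as whole reads within a relative tolerance of 1e-06. Gene symbols came from the GENCODE M21 annotation (GRCm38), which matched 55227 of 55487 identifiers.

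Values were tested as log2(value + 1) with limma 3.58.1 in R 4.3.3, with all groups of a table in one fit and a trended prior. Genes below 10 in all but 1 library were left out, and p-values were adjusted by Benjamini-Hochberg over all genes tested. Fold changes refer to log2(value + 1), which understates those of low genes. On the recovered reads, edgeR 4.0.16 called 9502 genes in FL against mCherry and DESeq2 1.42.0 called 8994, against 9531 by limma. The code was tested on simulated data. Alternatives were other scalings, pseudocounts of 0.1 and 8, no filter, edgeR and DESeq2, fits on the groups compared alone, protein-coding genes only, no fold minimum, a replicate block, leaving out each replicate and, added after seeing the data, the kind of library as a term.

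Named genes were the 10 repressors, up to 3 genes of each partner list with the largest change among those called in FL against mCherry or in C1C3b against C1+14, and for each repressor the 2 genes of most similar profile with a mean of at least 50. Pias2, Cdyl, Suv39h2, Ubn1, Atrx, Mga and Rybp fall under this rule, and overlapping genes were named besides it. The repressors and lists were chosen with earlier results of these data known. Intervals for counting error were not computed, since replicate spread was used.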

Additional observations from a re-analysis of the deposited data

How the results depend on the processing

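Of the 65 differences of single repressors with a limma adjusted p under 0.05, 1047 alternative values were computed. Direction and call were kept in 981, a call was lost in 38 and gained in 16, and the sign turned in 12, all under quantile normalization, which sets the distributions of all libraries equal. The cause of the changes was not tested. For Trim28 these values were -0.18 in FL, -0.61 in C3+14 and -0.45 in C1C3a against mCherry, -0.12 in FL and -0.39 in C1C3a against C1+14, and -0.21 in FL and -0.30 in C12345delt14 against deltC12345delt14. For Kdm1a they were -0.48 in FL and -0.42 in C1C3a against C1+14 and -0.27 in FL against deltC12345delt14. Setdb1 in C1C3a against mCherry was -0.00892, and Ehmt2 in FL against C1+14 was -0.0574.

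Counts of repressors called moved as follows. With no fold minimum, and with the share of all genes in parentheses, they were 3 (31.4%) in C1+14, 4 (44.7%) in C1C3c, 5 (60.7%) in C1C3b, 6 (62.8%) in C1C3a and 6 (63.0%) in C3+14 against mCherry, 7 (56.9%) in FL, 8 (57.3%) in C1C3a, 4 (45.0%) in C1C3b and 4 (14.3%) in C1C3c against C1+14, 5 (40.8%) in C3+14 against FL, and 5 (53.7%) in FL and 2 (32.2%) in C12345delt14 against deltC12345delt14. Under TMM scaling they were 0 in C1C3b against C1+14 and 1 in FL against deltC12345delt14. Under upper-quartile scaling they were 2 in FL (9783), 1 in C1C3a (10717) and 2 in C1C3b (9839) against mCherry. Under quantile normalization they were 2 in FL (9506), 2 in C3+14 (10134) and 1 in C1C3a (10222) against mCherry. Against C1+14 they were 1 in FL (8391), 1 in C1C3a (9048), 2 in C1C3b (6278) and 2 in C1C3c (1641). In FL against deltC12345delt14 the count was 1 (7737). Among the deletion groups 3 varied under quantile normalization, for which the share of all genes is not given here. By edgeR the counts of repressors were 2 in FL against mCherry (9502), and 2 in C1C3a (8817) and 0 in C1C3b (6385) against C1+14. Fitting only the groups compared gave 0 in C1+14 against mCherry and 0 in C1C3b and C1C3c against C1+14. Protein-coding genes only gave 1 in C1C3a against mCherry. For these fits the share of all genes is not given here.

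Leaving out 1 replicate at a time gave 0 to 1 in C1C3a, 0 to 1 in C1C3c and 1 to 2 in C1+14 against mCherry, 2 to 5 in C1C3a, 0 to 1 in C1C3b and 0 to 2 in C1C3c against C1+14, and 0 to 1 in C12345delt14 against deltC12345delt14. Where an arm kept 1 library, its spread was taken from the other groups. For counts without a replicate the share of all genes is not given here. Leaving out C1+14 replicate 2 in every comparison, chosen after seeing the data, gave 2 in C1C3a, 0 in C1C3b and 0 in C1C3c against C1+14. The kind of library as a term in the deletion table, also chosen after seeing the data, changed no count of repressors called, and 525 genes in place of 190 were called in C12345delt14 against FL.

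Same-numbered replicates did not deviate together: correlations ran from -0.101 to 0.0501 over 21 pairs of groups in the chimera table and from -0.574 to 0.135 over 6 pairs in the deletion table. With the replicate block the number of repressors called was 4 in FL against mCherry, as without it, and no count of repressors changed. Over all genes, C12345delt14 against FL went from 190 calls to 45 with the block. With 2 libraries per group and no information on cultures, the spread rests on few values.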
